A study of Mus musculus with 48 samples.

Results

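The livers of mice carrying 1 copy of the LXRα W441R knock-in allele were compared with those of wild-type mice of the same breeding. The labels gave 8 livers the genotype DN:HET (animals 1, 4, 8, 14, 16, 20, 22 and 29) and 8 livers the genotype DN:WT (animals 2, 5, 7, 10, 13, 17, 21 and 28), which makes 16 of the 48 livers sequenced. The other livers were 8 with the genotype DN:HOM, from the same knock-in study, and 8 each of KO:WT, KO:HET and KO:HOM, from a study of an LXRα knockout allele. DN mice were C57BL/6J males made by injection of Cas9 and a donor oligonucleotide into embryos, crossed back to C57BL/6J and then bred heterozygous to heterozygous. The knockout line had been backcrossed to C57BL/6 and was kept at another site. The labels give each of the 48 sequenced mice, wild-type controls included, 8 weeks of western diet, which is rich in fat, sucrose and cholesterol, so none of these livers shows the allele on another diet. The knock-in allele is present in every cell of the body, and whole liver was extracted, so that a fall in the number of cells of a type and a fall in RNA per cell cannot be told apart. The study's methods say that some mice of the knock-in western diet cohort were killed early, and a figure legend gives all sequenced livers the same age at killing, after the full diet. The labels give no age.

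LXRα, encoded by Nr1h3, is a nuclear receptor that binds oxysterols and pairs with the retinoid X receptor on DNA. In hepatocytes it switches on genes that send cholesterol into bile and genes that make fatty acids, among them the sterol transporters Abcg5 and Abcg8 and the lipogenic factor Srebf1. In macrophages it induces cholesterol efflux and restrains inflammatory genes, and it is among the factors that keep Kupffer cells, the resident macrophages of the liver, in their identity. The heterozygous comparison asks what a single mutant copy does when a wild-type copy is also present.

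The changed codon is shown because it is what distinguishes the groups. In the GRCm39 genome, the tryptophan codon at residue 441 of the 445 residues of LXRα lies on the minus strand at chr2:91014696-91014698, in exon 10 of Nr1h3. The reference sequence around it, at chr2:91014684-91014719 and read in the direction of the gene, is given with the codon in capitals.
Nr1h3 codon 441: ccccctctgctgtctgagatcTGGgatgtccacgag
The recognition site of the enzyme BglII, AGATCT, overlaps the codon, and the study genotyped the mice by its loss. Gene counts do not separate reads of the mutant and the wild-type copy, so the genotype of a library could not be read from Nr1h3 itself.

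Nr1h3 was expressed at the wild-type level in heterozygous livers. Counts per 1000000 reads (CPM, scaled by the trimmed mean of M values) lay between 86.2 and 99.8 with a median of 93.1 in the 8 DN:HET livers, and between 82.0 and 96.8 with a median of 93.9 in the 7 DN:WT livers without animal 10. The groups overlapped, and the log2 fold change was 0.01 with a standard error (SE) of 0.06 and an adjusted p of 0.961. This and every adjusted p below, unless another tool is named, came from the quasi-likelihood F test of edgeR, adjusted over all genes tested by the Benjamini-Hochberg procedure. Over the alternatives in livers, scaling and filter it lay between -0.01 and 0.07. The knockout allele, in contrast, lowered the Nr1h3 count in KO:HET livers, where the log2 fold change against KO:WT was -0.67 (SE 0.06, adjusted p = 5.99e-11).

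Before the comparison, each DN liver was placed on the line from wild-type to homozygous, over 2065 genes. These genes differed by at least 1 on the log2 scale between DN:HOM and DN:WT, at an adjusted p under 0.05 and a mean log2 CPM above 1. They were chosen with the DN:WT and DN:HOM livers of the fit, so the ranges of those livers are not independent of that choice. The line was drawn without animals 10 and 12, from the mean of the other 7 DN:WT livers at 0 to that of the other 7 DN:HOM livers at 1, and each liver was left out of the means used to place it. The library labelled DN:WT animal 10 stood at 1.01, whereas the other DN:WT livers lay between -0.083 and 0.12. The library labelled DN:HOM animal 12 stood at 0.0013, whereas the other DN:HOM livers lay between 0.84 and 1.11. Both libraries are absent from the source data of the paper, with no reason given there. The results below leave them out, which leaves 46 livers in the fit, and are given again with animal 10. No liver was moved to another group. The DN:HET livers lay at 0.025 (animal 20), 0.044 (animal 14), 0.076 (animal 1), 0.10 (animal 8), 0.17 (animal 29), 0.20 (animal 16), 0.41 (animal 4) and 0.46 (animal 22). Animals 4 and 22 were therefore the heterozygous livers farthest from wild-type, and neither reached a homozygous liver.

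**Figure D1:**
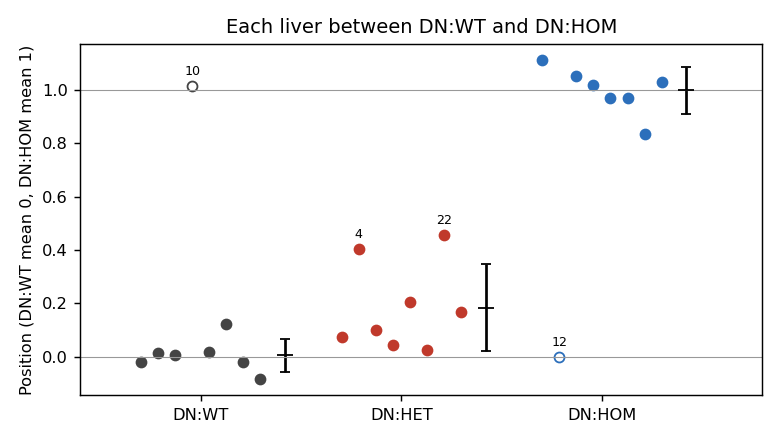
Position of each DN liver between wild-type (0) and homozygous (1), both without animals 10 and 12, over 2065 genes that differ between those genotypes, with animals in order of number, open circles for animals 10 and 12, and bars for the mean and SD of the filled circles. The heterozygous livers spread from 0.025 to 0.46, with animals 4 and 22 at the top.

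Reads on genes lay between 14147237 and 16805906 per DN:HET liver and between 13876351 and 16224831 per DN:WT liver. Animals 4 and 22 were within this range, with 14977635 and 15569055 reads. They had the smallest shares of reads on their 10 most abundant genes among DN:HET livers, 14.5% and 14.3%, and the most genes detected, 21085 and 21369 against 19815 to 20811 in the other 6 livers. The part of these differences in the results was not tested. Hepatocyte markers checked the tissue label: the summed level of 8 markers lay between 60316 and 76456 CPM in DN:WT livers, between 57983 and 72828 CPM in 6 DN:HET livers, and at 44933 and 43630 CPM in animals 4 and 22. Of the adipocyte markers (5 genes) none passed the filter on low counts, and of the pancreatic acinar markers (6 genes) 1 did.

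In DN:HET livers 361 of the 15711 genes tested differed from DN:WT at an adjusted p under 0.05. Of these, 350 were higher (2.23% of genes tested) and 11 were lower (0.07% of genes tested). With all 48 livers, and thus animal 10 among the wild-type and animal 12 among the homozygous, 39 genes were called (0.25% of 15621 genes tested). All 39 were higher and among the 350. With animal 10 kept and animal 12 left out, 61 genes were called, 54 higher and 7 lower. With animal 12 kept and animal 10 left out, 202 were called, 200 higher and 2 lower. The lower and the higher genes are described in turn.

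Among the lower genes were Abcg5 and Abcg8, which encode the subunits of the transporter that secretes cholesterol and plant sterols into bile. Abcg5 (ENSMUSG00000040505) had between 349 and 482 CPM in DN:WT livers, with a median of 411. In DN:HET livers it had between 185 (animal 20) and 283 CPM (animal 8), with a median of 257. Every heterozygous liver was below every one of the 7 wild-type livers, and animals 4 and 22, at 193 and 198 CPM, were not below animal 20. The log2 fold change was -0.78 (SE 0.15, adjusted p = 0.00439). Abcg8 (ENSMUSG00000024254) had between 248 and 403 CPM in DN:WT and between 162 and 266 CPM in DN:HET livers, and 6 of 8 heterozygous livers were below all wild-type livers. Its log2 fold change was -0.58 (SE 0.15, adjusted p = 0.0296). In DN:HOM livers Abcg5 fell by 2.82 and Abcg8 by 2.78 on the log2 scale. On that scale the heterozygous values of both genes lay nearer to wild-type than to homozygous.

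These genes lie head to head on chromosome 17. In the canonical transcripts of the GENCODE annotation Abcg5 starts at position 84990439 on the minus strand and Abcg8 at 84990452 on the plus strand, with 12 bases between them. The 30 bases that hold both starts, at chr17:84990431-84990460 of GRCm39 on the plus strand, are shown with the start positions in capitals because the fall is common to the pair.
Abcg5 and Abcg8 starts: ttcaccaaTttggccaacgatGccattatc
Other transcripts of the pair overlap on opposite strands. The counts used were those of the gene's own strand, and unstranded counts gave log2 fold changes of -0.78 and -0.58.

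Adam11 (ENSMUSG00000020926), a member of the disintegrin and metalloproteinase family, had between 75.3 and 165 CPM in DN:WT livers and between 36.3 and 73.4 CPM in DN:HET livers, with medians of 89.7 and 51.1. The groups did not overlap. Its log2 fold change was -0.99 (SE 0.19, adjusted p = 0.00625), beside -3.46 in DN:HOM livers. Mcat, of mitochondrial fatty acid synthesis, had 24.0 to 30.2 CPM in DN:WT and 16.7 to 23.5 CPM in DN:HET livers. Pcmt1, a protein repair methyltransferase, had 39.9 to 49.0 CPM in DN:WT and 31.9 to 39.9 CPM in DN:HET livers. Their log2 fold changes were -0.32 and -0.22 (adjusted p = 0.0309 and 0.0345). Neither overlapped between the groups, although for Pcmt1 the highest heterozygous and the lowest wild-type liver differed by less than 0.01 CPM. These 4 of the 11 lower genes did not overlap, against 10 of all genes tested (0.0636%) with every DN:HET liver below all 7 wild-type livers. Fdps, an enzyme of the mevalonate pathway with known pseudogene copies, had the largest fall, -1.15 (SE 0.29, adjusted p = 0.0259), at a low level of 1.03 to 2.72 CPM in DN:HET (219 reads in all) and 1.85 to 5.38 CPM in DN:WT livers (403 reads). Adissp, Asrgl1, Mtfp1, Ilf2 and Klhdc2 were the other named falls, with log2 fold changes between -0.54 and -0.19.

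**Figure D2:**
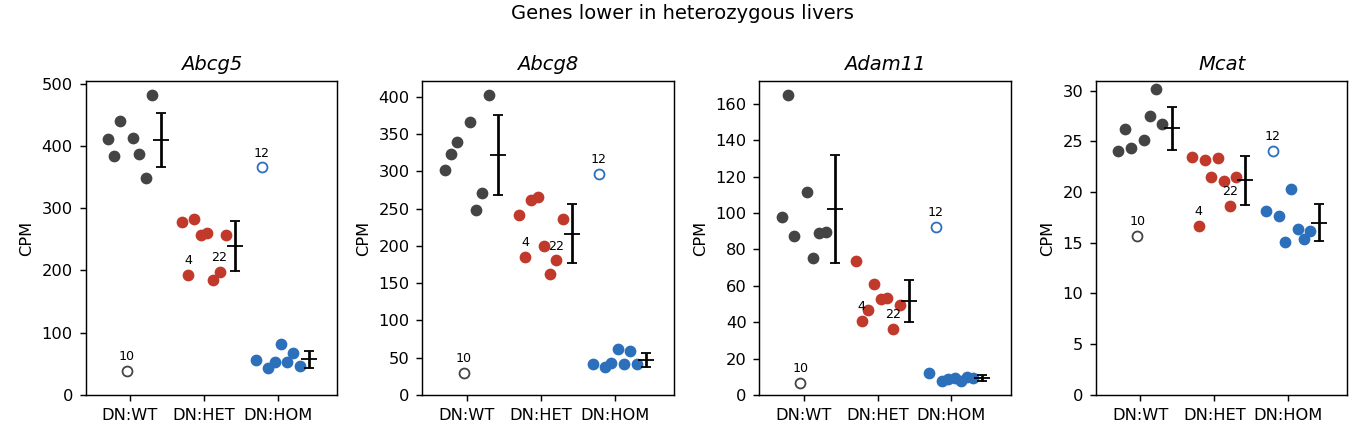
CPM of Abcg5, Abcg8, Adam11 and Mcat in each DN liver, with bars for the mean and SD of the filled circles and open circles for the libraries labelled DN:WT animal 10 and DN:HOM animal 12. For Abcg5 the 8 heterozygous livers lie at 185 to 283 CPM, below the 7 wild-type livers at 349 to 482 CPM and above the 7 homozygous livers at 43.8 to 82.1 CPM.

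Each DN:HET liver was below every wild-type liver for 7 to 10 of the 11 genes, with 10 in animals 4 and 22 and 7 or 8 in the other 6 livers. These genes were chosen as lower in the same livers, and over all genes tested a DN:HET liver was below every wild-type liver for 9.999% to 23.6% of genes. Without animals 4 and 22, all 11 genes were still lower and all 11 had an unadjusted p under 0.05 (median log2 fold change -0.31, beside -0.42 with all DN:HET livers), but none passed the adjusted threshold of edgeR. At that unadjusted p there were 639 of all 15849 genes tested. The 11 had been chosen in a fit that held the same livers, so their direction and p-values are not independent of that choice. The adjusted p without animals 4 and 22 was 0.178 for Abcg5, 0.805 for Abcg8 and 0.209 for Adam11. Abcg8 also lost its call when any of DN:HET animals 4 and 22 or DN:WT animals 2, 5, 7, 13 and 28 was left out alone (adjusted p from 0.0509 to 0.145), whereas Abcg5 and Adam11 kept theirs without any single liver. With animal 10 kept, the Abcg5 mean in wild-type was 363 ± 137 CPM (SD, n = 8) in place of 409 ± 43.1 CPM (SD, n = 7), beside 239 ± 40.1 CPM (SD, n = 8) in DN:HET livers. Animal 10 itself had 38.8 CPM. The fit of all 48 livers also held DN:HOM animal 12, which had 366 CPM of Abcg5. Its log2 fold changes were -0.60 for Abcg5 (adjusted p = 0.807), -0.40 for Abcg8 (adjusted p = 0.981) and -0.81 for Adam11 (adjusted p = 0.740). In the KO study, KO:HET livers had a log2 fold change of 0.02 for Abcg5 and 0.10 for Abcg8 (adjusted p = 0.988 and 0.938). The difference between the studies was -0.80 (SE 0.20, adjusted p = 0.984) for Abcg5, which did not pass the threshold over all genes.

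The other 16 LXR target genes tested did not pass the threshold. The list of 18 had 0 higher and 2 lower, beside 2.23% and 0.07% of all genes tested. Its median log2 fold change was -0.14, beside -0.01 over all genes tested. It was -0.06 over all 48 livers, with none called, and -0.10 without animals 4 and 22. Srebf1, the factor that drives lipogenic genes, had a median of 852 CPM (716 to 1277) in DN:WT and 744 CPM (378 to 1014) in DN:HET livers, and a log2 fold change of -0.43 (SE 0.18, adjusted p = 0.261), or -0.26 over all 48 livers and -0.27 without animals 4 and 22. Abca1, the cholesterol efflux transporter, had a log2 fold change of 0.08 (adjusted p = 0.745) with 208 to 304 CPM in DN:HET livers.

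Lipogenic genes were low in 3 of the heterozygous livers, and did not pass the threshold over all 8. None of the 24 genes of fatty acid and triacylglycerol synthesis was called, and 21 of them had a fold change below 0, with a median of -0.43. The same median was -2.45 in DN:HOM livers. Per liver, the median of the list relative to the mean of wild-type was -1.18 in animal 14, -0.83 in animal 22 and -0.80 in animal 4, and between -0.22 and 0.02 in the other 5 heterozygous livers. The 7 wild-type livers lay between -0.47 and 0.50, so animals 4, 14 and 22 were the DN:HET livers outside the wild-type range. Animal 10 was at -2.10, below every heterozygous liver, so with it none was outside that range. The median of the list was -0.25 over all 48 livers and also without animals 4 and 22, with none called in either fit. Scd1, the stearoyl-CoA desaturase, had 13731, 15629 and 17585 CPM in animals 14, 4 and 22, and 29634 to 44865 CPM in the others, against 22512 to 45280 CPM in DN:WT livers. Fasn, the fatty acid synthase, had 356, 677 and 573 CPM in animals 14, 4 and 22, and 1115 to 2215 CPM in the others, against 945 to 3731 CPM in wild-type. The log2 fold changes of Scd1 and Fasn were -0.44 (adjusted p = 0.716) and -0.57 (adjusted p = 0.606), and -0.25 and -0.38 over all 48 livers. Pnpla3, a lipid droplet hydrolase induced by lipogenic signals, had its lowest values in animals 14 and 22, with 1.18 and 3.16 CPM against 4.63 to 52.9 CPM in wild-type livers, and animals 1 and 8 were also below that range. It had a log2 fold change of -1.43 (adjusted p = 0.152).

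Cholesterol synthesis genes were lowest in the same 3 livers. Of 20 genes tested 0 were higher and 1, Fdps, was lower (beside 2.23% and 0.07% of all genes tested), with a median of -0.32. The per-liver median was -0.82 in animal 14, -0.65 in animal 4 and -0.51 in animal 22, and the wild-type livers lay between -0.35 and 0.44, with animal 10 at -0.95. The median was -0.25 over all 48 livers, with none called. The lists of uptake and regulation (9 genes), bile acid synthesis and transport (14 genes), lipid droplet genes (17 genes), fatty acid oxidation (18 genes), glucose and fructose metabolism (13 genes), stress response (14 genes), circadian clock (15 genes) and LXR, RXR and cofactors (13 genes) had no called gene, with medians between -0.26 and 0.16, and between -0.16 and 0.08 over all 48 livers. For fatty acid oxidation the per-liver median was -0.72 in animal 4 and -0.63 in animal 22, and between -0.37 and 0.18 in the other 6 livers.

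Among the 350 higher genes with a mean log2 CPM above 1, the 12 largest rises were Nos2, Ly6i, Clec4e, Lyz1, H2-M2, Ubd, Ccl5, Acod1, Tgtp1, Slamf7, Cd74 and Marco, with log2 fold changes from 6.39 to 3.06. Nos2, Ly6i, Ccl5 and Tgtp1 were still called over all 48 livers. The other 8 were not, among them Clec4e at 2.71, Lyz1 at 2.28, H2-M2 at 1.30, Acod1 at 2.83 and Slamf7 at 1.52 (adjusted p from 0.184 to 0.888). Without animals 4 and 22, H2-M2 was the single one of the 12 called, at 3.60. Some of these folds rest on few wild-type reads: Nos2, the inducible nitric oxide synthase, had 4 reads over the 7 DN:WT livers and 520 over the 8 DN:HET livers, and Ly6i, of a family of similar genes, had 6 and 696. Their fitted folds of 6.39 and 6.30 depend on how near-zero counts are handled. Ubd, a ubiquitin-like modifier induced by interferon-γ and tumour necrosis factor, had 1.26 to 4.40 CPM in DN:WT livers. It had 128 and 134 CPM in animals 4 and 22, 29.5 and 25.7 CPM in animals 29 and 16, and 7.87 to 8.37 CPM in the other 4 heterozygous livers. No heterozygous liver overlapped the wild-type range, and the log2 fold change was 4.39 (SE 0.69, adjusted p = 0.000809). Over all 48 livers it was 1.10 (adjusted p = 0.958), with animal 10 at 145 CPM, and without animals 4 and 22 it was 2.81 (adjusted p = 0.0606).

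Genes of MHC class II, which presents antigen to helper T cells, rose together. Cd74, the invariant chain (ENSMUSG00000024610), had a median of 46.7 CPM (35.3 to 74.3) in DN:WT livers. It had 1398 CPM in animal 22, 1089.8 CPM in animal 4, 595 CPM in animal 29, 221 CPM in animal 16, 116 CPM in animal 1, 112 CPM in animal 14, 72.4 CPM in animal 8 and 67.7 CPM in animal 20. The lowest of these, animals 8 and 20, overlapped the wild-type range. Its log2 fold change was 3.06 (SE 0.54, adjusted p = 0.00186), beside 3.01 in DN:HOM livers, where it had 233 to 596 CPM. H2-Aa, H2-Ab1 and H2-Eb1, the class II chains, had log2 fold changes of 2.81, 2.70 and 2.91 (adjusted p = 0.00186 for each), and Ciita, their master transactivator, 2.89 (adjusted p = 0.00439). H2-Aa had 657 and 567.8 CPM in animals 22 and 4 against 22.2 to 46.3 CPM in wild-type livers and 144 to 300 CPM in DN:HOM livers. Over all 48 livers H2-Aa, H2-Ab1, H2-Eb1 and Cd74 had log2 fold changes of 2.10, 2.07, 2.21 and 2.35 and were not called (adjusted p from 0.0560 to 0.0634), while Ciita was (adjusted p = 0.0295). Without animals 4 and 22 the 4 genes had 1.65, 1.61, 1.80 and 1.85 (adjusted p from 0.180 to 0.242).

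The 150 bases upstream of the class II starts are shown because these genes moved together across the livers. They are read in the direction of each gene from GRCm39, with each CCAAT (or ATTGG, the same box on the other strand) in capitals. H2-Aa lies at chr17:34506798-34506947 on the minus strand, H2-Ab1 at chr17:34482033-34482182 and H2-Eb1 at chr17:34524663-34524812, both on the plus strand.
H2-Aa: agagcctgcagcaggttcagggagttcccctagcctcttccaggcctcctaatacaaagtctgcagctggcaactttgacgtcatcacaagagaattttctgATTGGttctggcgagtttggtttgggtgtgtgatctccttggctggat
H2-Ab1: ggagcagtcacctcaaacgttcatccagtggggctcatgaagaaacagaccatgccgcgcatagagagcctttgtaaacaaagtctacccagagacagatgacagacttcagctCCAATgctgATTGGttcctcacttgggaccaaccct
H2-Eb1: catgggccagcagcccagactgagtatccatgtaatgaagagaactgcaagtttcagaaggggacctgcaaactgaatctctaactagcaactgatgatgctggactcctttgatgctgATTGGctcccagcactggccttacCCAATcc
The box was present in the 150 bases of these genes and of H2-DMa, and its letters were not in that window of H2-DMb1, while 27.7% of 21738 promoters of the same length hold it. The letters TTCNNNGAA, which read the same on both strands and which interferon-γ-activated factors can bind, were found upstream of Ciita and Tgtp1, not in that window of Cxcl9, Gbp2 or the 5 class II genes, and in 4.34% of all promoters. A match is a description of the letters and no evidence of binding.

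**Figure D3:**
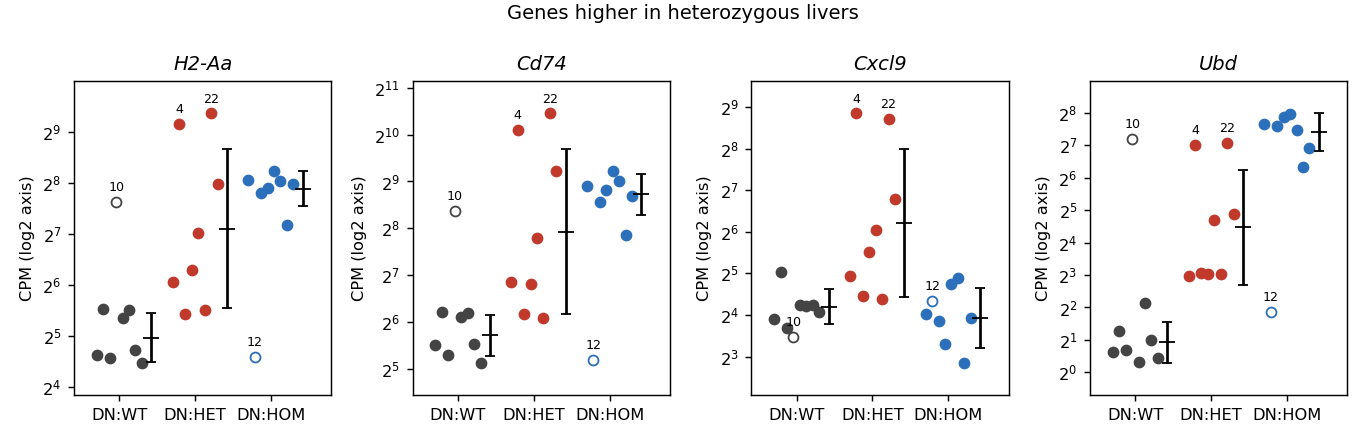
CPM on a log2 axis of H2-Aa, Cd74, Cxcl9 and Ubd in each DN liver, with bars for the mean and SD of log2 CPM of the filled circles and open circles for the libraries labelled DN:WT animal 10 and DN:HOM animal 12. Animals 4 and 22 stand at the top of the heterozygous livers in all 4 plots, above every homozygous liver for H2-Aa, Cd74 and Cxcl9.

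The chemokines Cxcl9 and Ccl5 also had their 2 highest heterozygous values in animals 4 and 22. Cxcl9, a T cell chemokine induced by interferon-γ, had 462 and 421 CPM in animals 4 and 22, 111 CPM in animal 29 and 20.8 to 66.1 CPM in the other 5 heterozygous livers, against 12.8 to 32.8 CPM in DN:WT livers. The log2 fold change was 2.95 (SE 0.65, adjusted p = 0.0137). It was 3.03 over all 48 livers (adjusted p = 0.0248), and 1.37 and not called without animals 4 and 22. In DN:HOM livers it was -0.16 (adjusted p = 0.849), with 7.24 to 29.4 CPM. Ccl5 had 61.7 and 22.4 CPM in animals 22 and 4, 0.708 to 6.64 CPM in the other heterozygous livers and 0.606 to 1.60 CPM in wild-type livers. Gbp2, a guanylate-binding protein, had a log2 fold change of 2.36 (adjusted p = 0.0181). It was the single called gene of 14 interferon-stimulated genes, beside 2.23% of all genes tested called higher. Of the 14, 3 had log2 fold changes below 0. Gbp2 was also called over all 48 livers (2.36, adjusted p = 0.0283). Without animals 4 and 22 it was 0.91 and not called.

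Over the inflammation list, 16 of 21 genes tested were higher and 0 lower, beside 2.23% and 0.07% of all genes tested. The median log2 fold change was 1.96. Over all 48 livers 3 were called with a median of 1.10, without animals 4 and 22 none was called with a median of 0.72, and none was called with the compared groups alone (median 1.89). The list medians per liver were 3.56 in animal 4, 3.52 in animal 22, 1.65 in animal 29, 1.63 in animal 16, 0.88 in animal 14, 0.40 in animal 1, 0.36 in animal 8 and 0.20 in animal 20. The wild-type livers lay between -0.46 and 0.55, so 5 heterozygous livers were above that range and 3 within it. DN:HOM livers lay between 1.99 and 2.99, and animals 4 and 22 were above all of them. Animal 14, the lowest liver for lipogenic genes, thus had less inflammatory gene expression than animals 4, 22, 29 and 16.

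Markers of immune cells moved with these genes, and their part in the result was not tested. The counts of higher markers below stand beside 2.23% of all genes tested called higher. Of the T and NK cell markers, 4 of 5 tested were higher, for example Cd3g with 6.32 and 4.44 CPM in animals 22 and 4 and 0.139 to 0.606 CPM in wild-type livers (log2 fold change 2.47, adjusted p = 0.0137). The summed level of this list was 1.04 to 2.27 CPM in DN:WT livers, 17.3 and 20.4 CPM in animals 4 and 22, and 2.0 to 7.90 CPM in the other heterozygous livers. Of the neutrophil markers 1 of 5 was higher, with summed levels of 3.47 to 6.53 CPM in wild-type, 32.9 and 44.7 CPM in animals 4 and 22 and 3.03 to 13.3 CPM in the others, while Ly6g, which defines the type, was at 0 in these DN:WT and DN:HET livers. B cell, endothelial, cholangiocyte and erythroid markers had no called gene. Proliferation markers had 0 of 6 called but 6 above 0, with summed levels of 7.42 to 16.8 CPM in wild-type livers, 43.3 and 46.3 CPM in animals 4 and 22 and 9.70 to 20.3 CPM in the other heterozygous livers. Their median of 0.88 turned to -0.30 over all 48 livers and was 0.29 without animals 4 and 22. Acute phase proteins had 3 of 14 higher, among them Saa3 (log2 fold change 2.62, adjusted p = 0.0228). Of these lists, 2 T and NK cell markers were still called over all 48 livers, with none of the neutrophil markers or acute phase proteins, and without animals 4 and 22 none of these was called.

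Of 12 Kupffer cell genes 2 were higher in DN:HET livers, Marco and Adgre1, beside 2.23% of all genes tested. Over all 48 livers 0 were called and without animals 4 and 22 also 0. In the main fit their median was 0.58. That median was 0.71 over all 48 livers and 0.22 without animals 4 and 22. In DN:HOM livers 4 of these genes were called higher and 8 lower, with a median of -4.12, beside 29.1% and 30% of all genes tested in that comparison. Marco, a scavenger receptor, had 217 and 118 CPM in animals 22 and 4, 8.26 to 30.5 CPM in the other heterozygous livers and 0.876 to 20.3 CPM in wild-type livers, and its highest value in DN:HOM livers was 0.527 CPM. Its log2 fold change was 3.06 (SE 0.78, adjusted p = 0.0259) in DN:HET and -4.65 in DN:HOM livers. Clec4f, a lectin specific to Kupffer cells, had 57.4 to 135 CPM in DN:HET livers, 60.3 to 108 CPM in DN:WT livers and at most 0.631 CPM in DN:HOM livers, with a heterozygous log2 fold change of 0.20 (adjusted p = 0.819). Of 13 genes of lipid-associated macrophages 4 were higher (beside 2.23% of all genes tested), Gpnmb, Itgax, Lgals3 and Ms4a7, with a median of 0.90. In DN:HOM livers 13 of 13 were called higher, with a median of 4.57. The heterozygous median turned to -1.04 over all 48 livers, with 0 called, and without animals 4 and 22 it was 0.46 with 0 called. Gpnmb, a glycoprotein of lipid-laden macrophages, had 16.96 and 16.5 CPM in animals 22 and 4 and 1.29 to 9.23 CPM in the others, against 0.272 to 2.53 CPM in wild-type and 137 to 289 CPM in homozygous livers. Its log2 fold change was 2.94 (SE 0.83, adjusted p = 0.0440), and it turned to -2.03 (adjusted p = 0.711) over all 48 livers, with animal 10 at 247 CPM. Fibrosis and stellate cell genes had 0 of 15 called, a median of 0.54 that turned to -0.28 over all 48 livers, and per-liver medians of 0.95 and 0.87 in animals 4 and 22, 0.50 in animal 16 and -0.09 to 0.30 in the others, against -0.32 to 0.46 in wild-type livers.

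**Figure D4:**
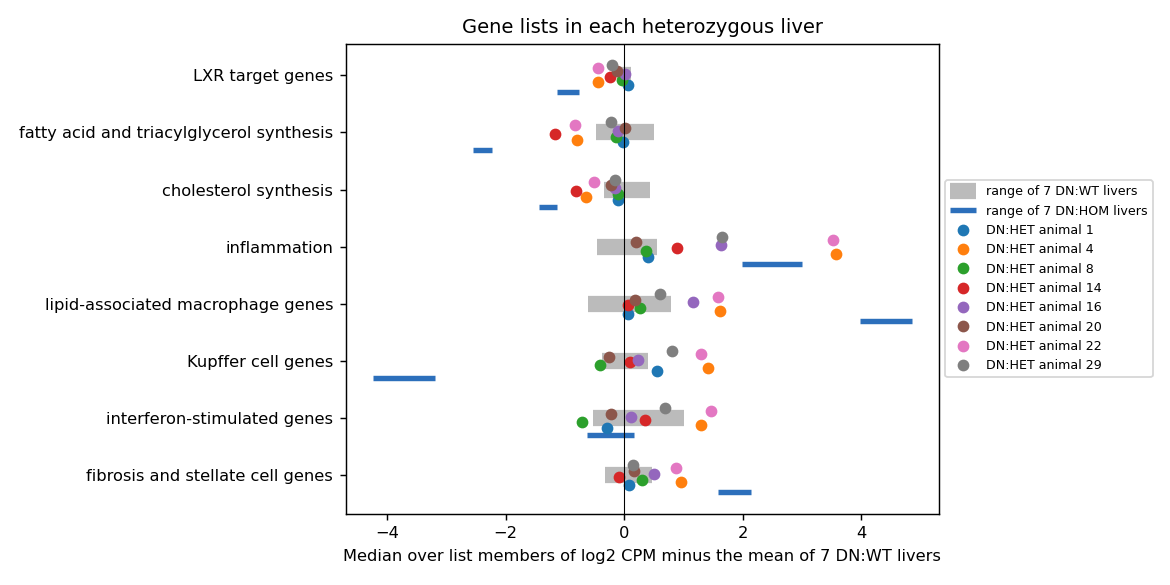
Median over each list of log2 CPM minus the mean of 7 DN:WT livers, for each heterozygous liver (points), with the range of the 7 wild-type livers (grey) and of the 7 homozygous livers (blue). Animals 4 and 22 are outside the grey range in each of the 8 lists shown, and animal 14 is outside it for fatty acid, cholesterol and inflammatory genes and for the LXR target genes.

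The number of higher genes followed animals 4 and 22. They were the 2 highest heterozygous livers for 324 of the 350 genes (92.6%, beside 14.2% of all genes tested). Animal 4 was above every wild-type liver for 347 of the 350 genes, animal 22 for 346, animal 29 for 333, animal 16 for 294, animal 14 for 125, animal 1 for 123, animal 8 for 98 and animal 20 for 72. Over all genes tested, a DN:HET liver was above every wild-type liver for 10.8% to 21.8% of genes. The 350 genes were chosen as higher in a fit that held these livers, so these counts are not independent of that choice. Without animal 22 the fit called 21 genes, without animal 4 it called 29, and without both it called 2 (0.0126% of 15849 genes tested), Cyp3a11 and H2-M2, neither of which was called over all 48 livers. Of the 349 higher genes still tested without both, 205 had an unadjusted p under 0.05, beside 639 of all 15849 genes tested, and their median log2 fold change was 0.78 in place of 1.69. All 349 stayed above 0, but they had been chosen as higher in a fit that held the same 6 heterozygous and 7 wild-type livers, so neither their direction nor these p-values are independent of that choice. Leaving out animal 8, 20, 1 or 14 instead raised the count to 629, 601, 562 or 576. Among wild-type livers, leaving out animal 28 gave 103, animal 7 gave 158, animal 2 gave 159, animal 21 gave 181, animal 5 gave 238, and animals 13 and 17 gave 311 and 361.

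**Figure D5:**
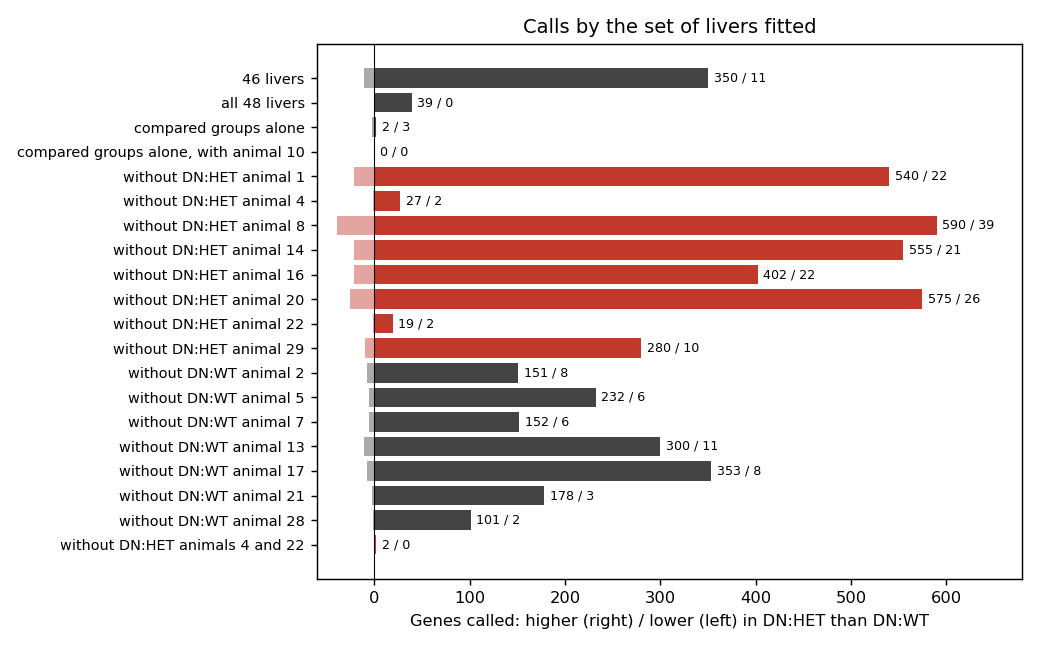
Genes called at an adjusted p under 0.05 with different sets of livers in the fit, with those higher in DN:HET to the right of 0 and those lower to the left, and the counts written as higher / lower. The 46 livers gave 350 / 11, and leaving out animals 4 and 22 gave 2 / 0.

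The count also changed with the groups in the fit. With 8 DN:HET and 7 DN:WT livers fitted alone, edgeR called 5 genes: Eif4e3 and Ccdc80 higher, and Lepr, Adam11 and Abcg5 lower (adjusted p = 0.0118 for Abcg5). Cd74, Cxcl9, Ubd and Abcg8 were not called with these 2 groups alone (adjusted p = 0.159, 0.180, 0.0717 and 0.166). At an unadjusted p under 0.05 this fit had 1532 genes. With animal 10 added it called 0, with 556 genes at an unadjusted p under 0.05, while DESeq2 on the 46 livers called 578. Eif4e3, a cap-binding translation factor, had 3.61 to 6.21 CPM in DN:WT and 9.27 to 25.4 CPM in DN:HET livers. Ccdc80, a secreted matrix protein, had 5.22 to 8.53 CPM in DN:WT and 9.84 to 18.8 CPM in DN:HET livers. Neither overlapped, and both were called in the fit of 46 livers, with log2 fold changes of 1.61 and 1.03. Neither was called over all 48 livers: Eif4e3 had 1.28 (adjusted p = 0.0504) and Ccdc80 -0.09, with animal 10 at 67.6 CPM for Ccdc80. Without animals 4 and 22 they had 1.28 and 0.86 (adjusted p = 0.105 and 0.694). Lepr, the leptin receptor, was not called in the fit of 46 livers (adjusted p = 0.0863). In all, 13 of the 350 higher genes did not overlap, against 21 of all genes tested (0.134%).

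Cyp3a11 and Cyp3a59 encode cytochromes P450 that oxidise steroids, bile acids and drugs. Cyp3a11 had 3893 to 7291 CPM in DN:HET livers and 1961 to 4520 CPM in DN:WT livers, so the groups overlapped, and animals 22 and 4 were its lowest heterozygous livers. The log2 fold change was 0.89 (SE 0.18, adjusted p = 0.00631), and 1.02 without animals 4 and 22 (adjusted p = 0.0213). Over all 48 livers it was 0.70 (adjusted p = 0.143), with animal 10 at 6620 CPM. In the KO study, KO:HET livers had a log2 fold change of 1.05 (SE 0.17, adjusted p = 0.000907), and the difference between the studies was -0.16 (SE 0.24, adjusted p = 0.995). Cyp3a59, a close paralog whose reads may be shared, had a log2 fold change of 0.92 (adjusted p = 0.0127), and of 0.96 (adjusted p = 0.0248) over all 48 livers. Without animals 4 and 22 it was 1.04 and not called (adjusted p = 0.0540). Pigr, the receptor that carries IgA into bile, rose by 0.46 (adjusted p = 0.0207) and by 0.49 over all 48 livers (adjusted p = 0.0295). These 3 genes and Eif4e3, Ccdc80 and Lepr were chosen after their values were seen.

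The spread among heterozygous livers was tested gene by gene with limma on absolute deviations from the group mean of log2 CPM. None of 13869 genes passed the adjusted threshold (lowest adjusted p = 0.317). In simulated data this test called 2 of 199 genes given extra spread (1.01%). The absence of calls therefore cannot show that the spread was alike. At an unadjusted p under 0.05, 1121 genes had a larger spread in DN:HET (8.08% of genes tested) and 267 a smaller one. The median SD over genes was 0.24 in DN:HET and 0.22 in DN:WT livers on the log2 scale, and 61.6% of genes had the larger SD in DN:HET. With animal 10 among the wild-type, the DN:WT median was 0.28 and 39.1% had the larger SD in DN:HET. The inflammation list had a median SD of 1.44 in DN:HET and 0.52 in DN:WT livers, with 20 of 20 genes larger and 13 of them at an unadjusted p under 0.05. Fatty acid oxidation genes had 0.34 and 0.17, with 18 of 18 larger. LXR, RXR and cofactors had 0.16 and 0.18, with 5 of 13 larger. The erythroid markers, which include haemoglobin genes, had 0.86 and 0.19, with animal 8 highest and animal 22 lowest.

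The heterozygous level was next compared with the midpoint of the wild-type and homozygous means on the log2 scale, which shares the DN:WT livers with the comparison above. It differed for 3648 genes, 2062 above the midpoint (13.1%) and 1586 below it (10.1%). Over all 48 livers, with animals 10 and 12 in the means, it differed for 2670 genes and the larger share was below, with 1274 above (8.16%) and 1396 below (8.94%). With library size alone as the scaling, the split was 924 above and 4158 below, and the median of all genes moved from 0.02 to -0.14. Genes that fall in homozygous livers and lay above the midpoint in heterozygous livers were thus nearer to wild-type on the log2 scale. Of the lipogenic genes 18 of 24 were above and 0 below (6 and 0 over all 48 livers), for example Scd1 by 2.41 and Fasn by 1.91, which were not called over all 48 livers (adjusted p = 0.221 and 0.202). Of the Kupffer cell genes 8 of 12 were above and 0 below, the same counts over all 48 livers, with Marco at 5.38 and Clec4f at 4.07 (2.01 over all 48 livers). Of the lipid-associated macrophage genes 0 of 13 were above and 8 below (0 and 10 over all 48 livers). Abcg5, Abcg8 and Adam11 were above by 0.63, 0.81 and 0.74 (adjusted p = 0.000162, 5.89e-06 and 0.000916). On the log2 scale, with CPM not tested, these 3 genes lay between the genotypes and nearer to wild-type. They were not called over all 48 livers (0.36, 0.54 and 0.31, adjusted p from 0.165 to 0.562). Of the inflammation genes 8 of 21 were above and 1 below (5 and 1 over all 48 livers), and H2-Aa and Cd74 were above by 1.37 and 1.56, since their heterozygous means were near the homozygous ones. That nearness rested on animals 4 and 22. Without them the heterozygous log2 fold changes of H2-Aa and Cd74 were 1.65 and 1.85, beside 2.90 and 3.01 in DN:HOM livers. Over all 48 livers H2-Aa was not called (1.10, adjusted p = 0.0669), while Cd74 was (1.30, adjusted p = 0.0423). The 5 largest values above the midpoint were Marco, Ly6i, Gbp2b, Cfd and Nos2 (5.38 to 4.80), and the 5 largest below it were Rasal1, Cpe, Tspan8, Rian and Meg3 (-3.01 to -2.57). Of these genes, Cfd was not called over all 48 livers (1.93, adjusted p = 0.0651), while each of the others was.

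The heterozygous effects of the knock-in and the knockout were compared by their difference. Nr1h3 was the single gene to pass the threshold of 15711 tested (0.00636%), by 0.68 (SE 0.08, adjusted p = 2.09e-06), since its count falls with the knockout allele and not with the knock-in allele. At an unadjusted p under 0.05 there were 661 genes. In KO:HET livers against KO:WT livers 3 genes were called, Nr1h3, Cyp3a11 and Ccr3. The inflammation list had a median of 0.65 in KO:HET and 1.96 in DN:HET livers, the lipogenic list -0.20 and -0.43, and the Kupffer cell genes 0.26 and 0.58. Without animals 4 and 22 these DN:HET medians were 0.72, -0.25 and 0.22, near those of KO:HET. H2-Aa had 27.4 to 178 CPM in KO:HET and 13.6 to 38.2 CPM in KO:WT livers, with a log2 fold change of 1.46 (adjusted p = 0.561), beside 43.1 to 657 CPM in DN:HET livers. Knock-in and knockout mice were kept at different sites, so site and allele cannot be told apart in the levels, and each effect is measured against wild-type mice of its own study.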

How the data were processed

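The authors extracted RNA from liver, made stranded mRNA libraries, aligned the reads with STAR 2.5.0a to GRCm39 (both named in the submitters' processing notes) and deposited raw read counts per gene in each library, in 1 column for the unstranded count and 1 for each strand. Column 4, the gene's own strand, was used here. Counting leaves out reads that match several places, so paralogs such as Ly6i, Tgtp1, Lyz1 and the Cyp3a genes are uncertain. Symbols from the GENCODE annotation were matched to 98.8% of the 55416 genes listed. Reads that named no gene, 24.8% to 35.0% in DN:HET and 25.5% to 34.3% in DN:WT livers, were left out. No pair of libraries was identical.

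Groups came from the labels. Nothing in the labels gives litter or day, so p-values measure the spread between mice as labelled. In the main fit that spread was shared over all 6 groups. The test across genes was that of edgeR 4.0.16, run in R 4.3.3 (filterByExpr, TMM scaling, quasi-likelihood F test on 6 group means, 46 livers, Benjamini-Hochberg over all genes, threshold 0.05). DESeq2 1.42.0 and limma 3.58.1 were alternatives, and limma gave the test of spread. Log2 CPM used a prior count of 2. The code was tested on simulated data, where the test of spread found few of the genes made more variable. Python 3.11.15, numpy 2.4.6, pandas 2.3.3 and matplotlib 3.10.9 were used.

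The genes named were Nr1h3, members of 28 lists written by hand, the 12 largest rises and 12 largest falls (11 were called) with a mean log2 CPM above 1, the 5 largest of each kind also called over all 48 livers, and the 5 largest of each kind in the other tests. The members and lists were chosen with earlier results of these data known. Alternatives were all 48 livers, either of animals 10 and 12 kept, the compared groups or the DN study alone, DESeq2, voom with group weights, other scalings and filters, unstranded counts, stricter thresholds and each liver left out. Leaving out animals 4 and 22 was chosen after seeing the data.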

Additional observations from a re-analysis of the deposited data

Results flagged for a closer look

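A liver was looked for that stood apart from the rest of its group, by the gap to its nearest neighbour as a share of the group's range, in 155 groups of values. Chance alone marks about 1 in 20 such groups, and 8 were marked. The position between wild-type and homozygous marked the library labelled DN:WT animal 10 (gap 0.814 of the range) and the library labelled DN:HOM animal 12 (0.751). When animal 10 was kept among the 8 DN:WT livers, it stood apart in 40 of 76 values, among genes and list medians.

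Among the 7 DN:WT livers without it, animal 17 stood apart for Sqle (0.615), for the median of bile acid synthesis and transport (0.731) and for that of LXR, RXR and cofactors (0.605). Animal 5 stood apart for Cxcl9 (0.585) and animal 13 for interferon-stimulated genes (0.570). Among DN:HET livers, animal 14 stood apart for LXR, RXR and cofactors (0.572). Animals 4 and 22 were not marked, since they lay close to each other.

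The heterozygous effect on Nr1h3 differed between the studies by 0.68 on the log2 scale.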

How the results depend on the processing

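The count of 361 genes in DN:HET against DN:WT fell to 39 over all 48 livers, 61 with DN:WT animal 10 kept and DN:HOM animal 12 left out, 202 with animal 10 left out and animal 12 kept, 5 with the compared groups alone (0 with animal 10, where edgeR had 556 genes at an unadjusted p under 0.05), 239 with the DN study alone, 11 with voom and group weights, and 30 at an adjusted p under 0.01. DESeq2 gave 578, of which 360 were shared. Leaving out 1 liver gave 21 (without DN:HET animal 22) to 629 (without DN:HET animal 8). Leaving out DN:HET animals 4 and 22, chosen after seeing the data, gave 2, and 1 with animal 10 kept. The causes were not tested. Upper-quartile scaling, library size alone, no filter, CPM means from 1 up, unstranded counts and a fold limit of 1 on the log2 scale gave 300 to 462.

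Abcg5 and Adam11 stayed below 0 in every fit and were called in every fit that left out a single liver from the 46, but not with animal 10 or animal 12 kept or without animals 4 and 22 together. Over the alternatives the adjusted p of Abcg5 ranged from 0.000152 to 1.

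The sign turned for some named genes. Nr1h3 lay at -0.00065 without animals 4 and 22, and between -0.010 (without DN:WT animal 2) and 0.030 (without DN:HET animal 16) when 1 liver was left out. Gpnmb was -2.03 over all 48 livers, -2.05 with animal 10 kept and animal 12 left out, and -2.08 with the compared groups and animal 10. Ccdc80 was -0.088, -0.10 and -0.11 in the same fits. Clec4f was -0.010 without animals 4 and 22. Without these and with animal 10, Clec4e was -0.28, Lyz1 -0.43, Ubd -0.48, Acod1 -0.11, Gpnmb -2.73 and Ccdc80 -0.26.

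The midpoint count was within 1.5 times of 3648 in all alternatives, although genes below outnumbered genes above over all 48 livers and with library size alone, and the difference between studies called Nr1h3 in each. The test of spread called 0 genes throughout, leaving out each liver included (0 to 0), except 1 without animals 4 and 22. This test found few of the genes made more variable in simulated data, so these counts do not show that the spread was alike.

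No paired analysis was possible because the animal numbers in the labels differ between DN:HET and DN:WT and no litter or batch is given.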
